A study of Mus musculus with 4 samples.

Results

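The collagen genes of the mouse were followed gene by gene across the cell populations of the Achilles tendon. All entries of the count table whose symbol has the form Col, a number, the letter a and a number were taken, whatever their level. This gave 41 collagen genes of 15746 genes used. They carried 426002 of 11499881 unique molecular identifiers (UMIs, the tags that count each captured transcript once), or 3.70%. Of the 41 genes, 26 had 100 or more UMIs and 15 had fewer. Col19a1, Col6a4 and Col10a1 belong to the structural classes used here and were not analysed.

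The study set out to catalogue the cells of tendon. Achilles tendons of male C57Bl/6 mice aged 6 weeks were dissociated and the cells sequenced in 4 libraries with droplet chemistry that reads the 3′ end of transcripts. The libraries form 1 group without treatment, and nothing in the labels tells if 1 mouse or several gave the cells of a library. Comparisons are therefore between populations within libraries, under the names that the authors gave to the cells. The p-values measure how the difference within a library varies over the libraries that enter a comparison, which are not always all 4.

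Collagens are the triple-helical proteins of the extracellular matrix, built of chains that may be alike or come from different genes. Fibrillar collagens assemble into the banded fibrils that bear load in tendon, with type I as the bulk component and types V and XI as minor components that start fibrils and limit their width. Fibril-associated collagens sit on fibril surfaces. Type IV forms the network of basement membranes, type VI beaded filaments around cells, and type VIII short-chain networks. Types XV and XVIII, the multiplexins, carry sugar chains and lie at basement membranes, and types XIII, XVII, XXIII and XXV span the cell membrane.

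The libraries held 580, 246, 256 and 109 cells with 5603366, 2252390, 2269014 and 1375111 UMIs, and shared 0 cell barcodes. Tendon fibroblasts made up 29.7%, 5.69%, 63.3% and 29.4% of the cells of libraries 1 to 4. Levels are UMIs per 1000000 UMIs of a population in a library (CPM), over libraries with 5 or more cells of the population. Tendon fibroblasts 3 and endothelial cells 3 reached that number in library 1 alone, so their values have no replicate. The names were checked against marker genes. Of 10 tendon fibroblast markers, 8 peaked in tendon fibroblasts 1, and tendon fibroblasts 2 and 3 led for 1 marker each, with Mkx at 0 in the latter. All 8 markers of pericytes and smooth muscle were highest in pericytes, and all 6 endothelial markers in endothelial cells 1 to 3. Of 5 lymphatic endothelial markers, 4 were highest in endothelial cells 3 and 1 in immune cells. The lymphatic list summed to 8699.5 CPM in endothelial cells 3, against means of 48.2 and 37.4 CPM in endothelial cells 1 and 2. All 7 Schwann cell and nerve markers were highest in nerve cells 1 to 3. In nerve cells 3 this last list summed to 9083 CPM, against 78286 CPM in nerve cells 1. The 3 perineurial markers in the table, of 4 listed, summed to 339 and 339.5 CPM in these, and Cldn1 among them was at 0 in both.

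Most collagen transcripts were in tendon fibroblasts. Tendon fibroblasts 1 to 3 together held 88.5%, 68.1%, 98.0% and 88.1% of the collagen UMIs of libraries 1 to 4, a mean of 85.7% ± 12.6 (SD, n = 4). Library 2, where the share was lowest, also had the fewest tendon fibroblasts among its cells. Within tendon fibroblasts 1, collagen genes made up 8.79%, 11.9%, 8.24% and 8.91% of all UMIs in libraries 1 to 4. For tendon fibroblasts 2 the share was 6.78%, 14.2% and 9.9% in libraries 1, 3 and 4, and for tendon fibroblasts 3 it was 14.2% in library 1. Single cells of 1 population spanned a wide range. Over the 173 cells of tendon fibroblasts 1 the share ran from 0.417% to 39.2% with a median of 5.82%. Over the 156 cells of tendon fibroblasts 2 it ran from 0.299% to 25.5% with a median of 11.5%.

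Other populations gave a smaller part of their transcripts to collagens. The share was 1.14% ± 0.557 in bursal fibroblasts (SD, n = 3), 0.937% ± 0.424 in nerve cells 3 (n = 3), 0.72% ± 0.0762 in nerve cells 1 (n = 3) and 0.696% ± 0.28 in pericytes (n = 4). It was 0.516% ± 0.136 in nerve cells 2 (n = 2), 0.467% ± 0.0467 in endothelial cells 1 (n = 4), 0.314% in endothelial cells 3 and 0.237% ± 0.0763 in endothelial cells 2 (n = 4). Immune cells (0.0296% ± 0.0178, n = 3) and red blood cells (0.0231% ± 0.0168, n = 4) had the lowest shares. Neither is known as a main source of collagens, and their levels are given below beside low values in other populations. Over single red blood cells the share ran up to 2.85%, with a median of 0%.

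The classes of collagen differed between populations. Fibrillar collagens made up 94.5%, 94.8% and 92.3% of the collagen UMIs of tendon fibroblasts 1, 2 and 3, and 72.8% of those of bursal fibroblasts. Basement membrane collagens made up 71.5%, 46.3% and 63% in endothelial cells 1, 2 and 3, 48.8% in pericytes and 0.148% in tendon fibroblasts 1. Nerve cells held a mixture. In nerve cells 1 and 2 the fibrillar share was 54.1% and 56.6%, and the basement membrane share 27.5% and 26.1%. Multiplexins took 33.7% of the collagen UMIs of endothelial cells 2 and 14.3% of those of endothelial cells 1.

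**Figure D1:**
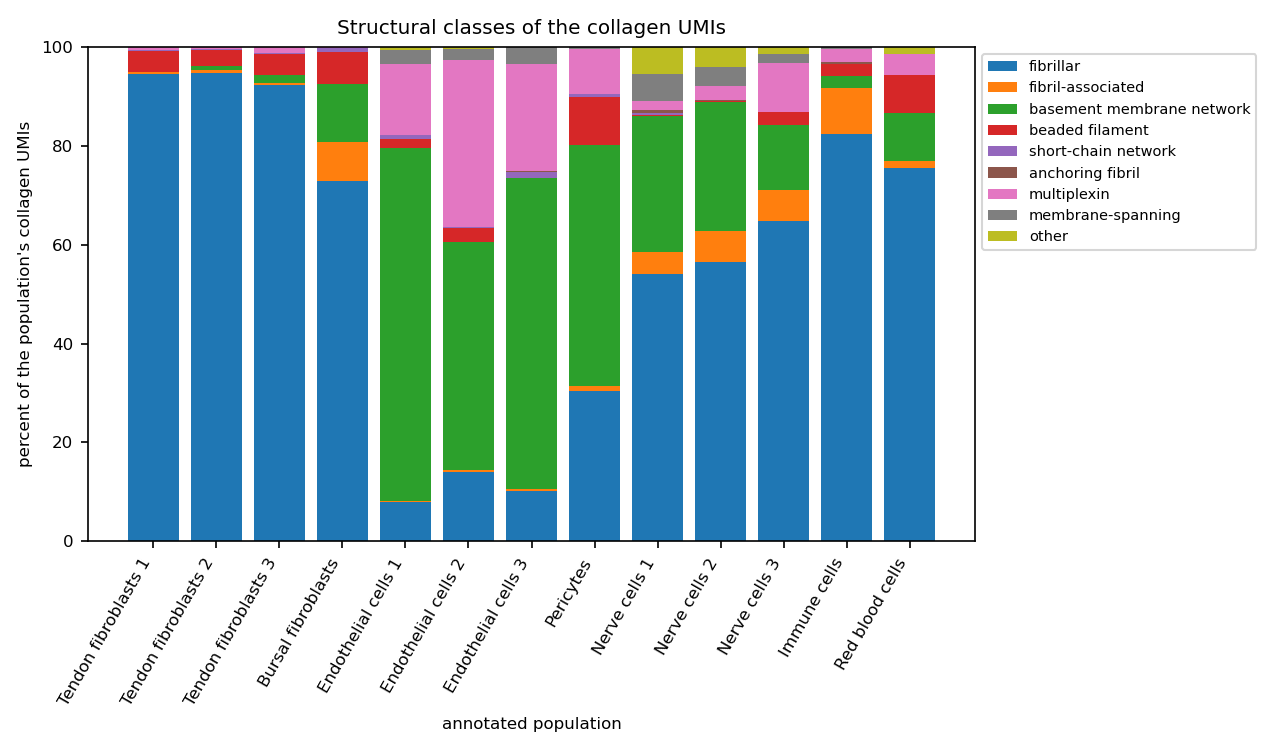
Percent of each population's collagen UMIs (vertical axis) that falls in each structural class (colours), for the 13 annotated populations with the 4 libraries summed. Fibrillar collagens fill 92.3% to 94.8% of the bars of tendon fibroblasts 1 to 3, and basement membrane collagens 46.3% to 71.5% of the bars of endothelial cells 1 to 3.

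Gene by gene, 15 of the 26 genes with 100 or more UMIs had their highest mean level in a tendon fibroblast population (tendon fibroblasts 1 for 4 genes, 2 for 2 and 3 for 9). Nerve cells had the highest level of 5 genes, endothelial cells of 4, and bursal fibroblasts and pericytes of 1 each. Among these 26, 0 were highest in immune cells or red blood cells. The 9 leads of tendon fibroblasts 3, and that of endothelial cells 3 (Col18a1), rest on library 1 alone. Some leads were narrow, at 1.03-fold over the next population for Col1a1 and Col12a1 and 1.04-fold for Col5a1. The type I, III, V and VI genes form a block in the tendon fibroblasts, except for Col5a3. Col4a1 and Col4a2 had their highest means in endothelial cells 1, within the spread of pericytes, and Col4a1 was also above endothelial cells 2 (630.0 CPM) in tendon fibroblasts 3 (945 CPM) and bursal fibroblasts (683 CPM).

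**Figure D2:**
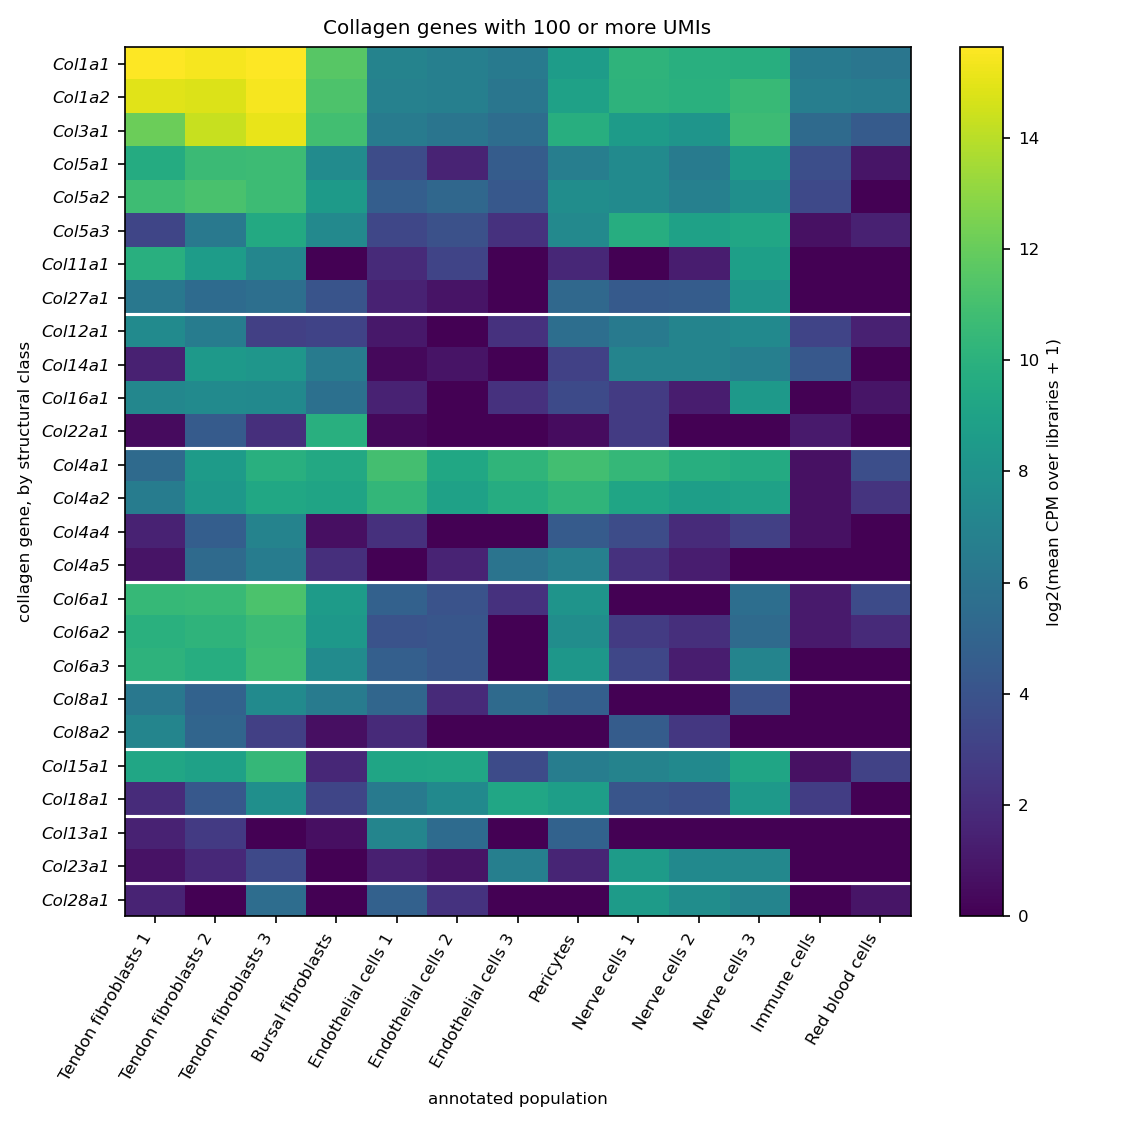
Mean level of the 26 collagen genes with 100 or more UMIs (rows, grouped by structural class and split by white lines) in the 13 annotated populations (columns), as log2 of the mean CPM over libraries plus 1 (colour). Col1a1, Col1a2 and Col3a1 are brightest in tendon fibroblasts, Col22a1 in bursal fibroblasts, and Col23a1 and Col28a1 in nerve cells.

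Type I collagen, the main protein of tendon, is built of chains from Col1a1 (chromosome 11, 94936224 to 94953042, plus strand, build GRCm38) and Col1a2 (chromosome 6, 4504814 to 4541544, plus strand). Col1a1 gave 42.5% and Col1a2 28.9% of all collagen UMIs. In tendon fibroblasts 1, Col1a1 stood at 47351, 69708, 42185 and 44384 CPM in libraries 1 to 4. Tendon fibroblasts 2 had 23326, 63313 and 43145 CPM in libraries 1, 3 and 4, and tendon fibroblasts 3 had 49517 CPM. The ranges of tendon fibroblasts 1 and 2 overlapped, and the second was wider. Bursal fibroblasts were lower in each library, at 4679, 3577 and 762 CPM in libraries 1, 3 and 4. Nerve cells 1 had 1084, 1028 and 1307 CPM in libraries 1 to 3, and pericytes 242, 233, 565 and 561 CPM in libraries 1 to 4.

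Low Col1a1 levels were present in every population. Endothelial cells 1 to 3 together had 103, 47.5, 216 and 129 CPM in libraries 1 to 4. Immune cells had 88.9, 23.2 and 132 CPM in libraries 1 to 3, and red blood cells 134, 46.9, 55.6 and 44.6 CPM in libraries 1 to 4. The endothelial values were of the size found in immune and red blood cells. They were lowest in library 2 and highest in library 3, the libraries with the smallest and largest share of tendon fibroblasts, while the red blood cell value was highest in library 1. Chad, a cartilage and tendon matrix gene, had 0.149 UMIs per Col1a1 UMI in tendon fibroblasts and 0.141 in endothelial cells (45 and 320 UMIs, 95% interval for counting error 0.101 to 0.193). In nerve cells the ratio was 0.0121 (12 and 988 UMIs, interval 0.00625 to 0.0213). In immune cells it was 0.138 (9 and 65 UMIs) and in red blood cells 0.55 (33 and 60 UMIs, with 32 of the Chad UMIs in library 1). Between collagen genes the endothelial ratios of UMIs summed over libraries differed from those of tendon fibroblasts. Col3a1 per Col1a1 UMI was 0.825 (interval 0.698 to 0.974) against 0.327, and Col5a1 per Col1a1 UMI 0.125 (0.0876 to 0.174) against 0.027. In libraries 1 to 4 the first was 1.02, 0.641, 0.492 and 0.686, against 0.443, 0.117, 0.287 and 0.233. The second was 0.181, 0.0256, 0 and 0.157, against 0.0329, 0.0114, 0.0246 and 0.026. Of its 40 endothelial Col5a1 UMIs, 31 were in library 1, so its difference was not seen in every library. Col1a1 per Col1a2 UMI was 1.10 (0.932 to 1.29) against 1.49. Nerve cells 1 were above immune and red blood cells in Col1a1 in each of libraries 1 to 3. The part of RNA from tendon fibroblasts in the low values was not tested.

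Col1a1 and Col1a2 varied together from cell to cell. Within tendon fibroblasts 1 and 2 of single libraries, with 21 to 83 cells each, Pearson's r between their levels lay between 0.919 and 0.971. These cells share a library, so r is a description. In 3′ counting a UMI stands for a transcript whatever its length, so ratios of UMIs can be set side by side between populations. Col1a1 had 1.59 UMIs per Col1a2 UMI in tendon fibroblasts 1 (1.65, 1.86, 1.5 and 1.52 in libraries 1 to 4) and 1.47 in tendon fibroblasts 2 (1.41, 1.49 and 1.56 in libraries 1, 3 and 4). It was 1.17 in tendon fibroblasts 3, 1.22 in bursal fibroblasts, 1.01 in nerve cells 1 and 0.961 in nerve cells 2. Col1a2 was the more abundant of the pair in pericytes, with a summed ratio of 0.71 (0.596, 0.541, 1.05 and 1 in libraries 1 to 4), and in nerve cells 3, with 0.602 (interval 0.476 to 0.758). In pericytes libraries 1 and 2 lay below 1 and libraries 3 and 4 did not. Ratios of this size were also found in red blood cells, at 0.759 (interval 0.534 to 1.08), while immune cells had 1.05 and endothelial cells 1 to 3 together 1.10.

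Type III collagen, made of Col3a1 chains alone, is known from thin fibrils in the loose tissue around and between tendon fascicles. Col3a1 (chromosome 1, 45311538 to 45349706, plus strand) gave 14.3% of collagen UMIs. In tendon fibroblasts 1 it stood at 4203, 4079, 3966 and 5675 CPM in libraries 1 to 4, in tendon fibroblasts 2 at 18682, 25199 and 18729 CPM in libraries 1, 3 and 4, and in tendon fibroblasts 3 at 35453 CPM. The ranges of tendon fibroblasts 1 and 2 did not overlap. Per Col1a1 UMI, Col3a1 had 0.0931 UMIs in tendon fibroblasts 1 (0.0585 to 0.128 over libraries), 0.493 in tendon fibroblasts 2 (0.398 to 0.801) and 0.718 in tendon fibroblasts 3. Pericytes had more Col3a1 than Col1a1 in each library, with ratios of 1.17, 3, 2.6 and 1.98. Nerve cells 3 had a ratio of 1.93, and nerve cells 1 and 2 of 0.287 and 0.287. A Col3a1 UMI was found in 52.3% of pericytes and 22.8% of immune cells, with median depths of 9188 and 7108 UMIs. After each cell was thinned to 2400 UMIs the shares were 29.8% and 12.6%.

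**Figure D3:**
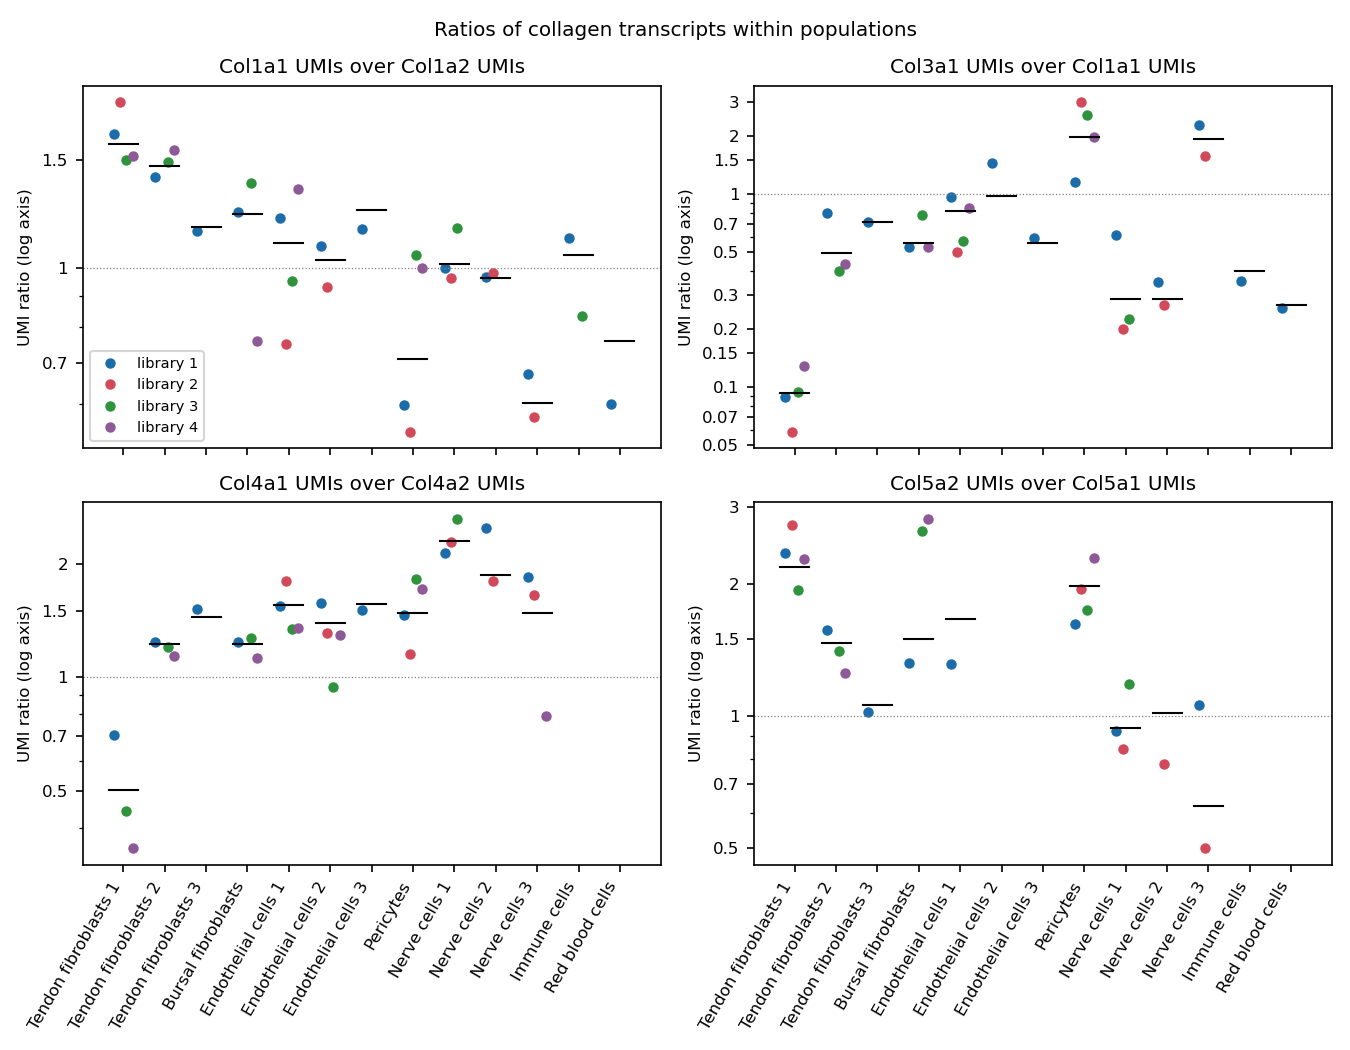
UMIs of a collagen gene over UMIs of a second (vertical log axes) by population, as points for each library with 5 or more cells and 10 or more UMIs of both genes, and as black lines for all libraries summed where both genes had 10 or more UMIs. Among the lines drawn, Col3a1 over Col1a1 runs from 0.0931 in tendon fibroblasts 1 to 1.98 in pericytes, and Col4a1 over Col4a2 from 0.503 in tendon fibroblasts 1 to 2.29 in nerve cells 1.

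Types V and XI supply minor chains of the fibril. Col5a1 was at 769 ± 143 CPM in tendon fibroblasts 1 (SD, n = 4), 1588 ± 174 CPM in tendon fibroblasts 2 (n = 3) and 1654 CPM in tendon fibroblasts 3. Col5a2 was at 1786 ± 373, 2244 ± 365 and 1691 CPM in the same order. The surplus of Col5a2 over Col5a1 thus differed, at 2.19, 1.47 and 1.06 Col5a2 UMIs per Col5a1 UMI. Col11a1 was at 823, 1024, 762 and 1133 CPM in tendon fibroblasts 1 of libraries 1 to 4, and at 151, 638 and 419 CPM in tendon fibroblasts 2 of libraries 1, 3 and 4. These ranges did not overlap. Bursal fibroblasts had 0 UMIs of it in 40 cells. Nerve cells 3 had 448 ± 277 CPM (n = 3), within the range of tendon fibroblasts 2 in its mean, while nerve cells 1 had 0 UMIs.

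Col5a3, the third type V chain, had another pattern. It was highest in nerve cells 1, at 950.3, 778 and 800.4 CPM in libraries 1 to 3, followed by tendon fibroblasts 3 at 736 CPM. Nerve cells 2 had 497 and 492 CPM in libraries 1 and 2. In tendon fibroblasts 1 it was at 17.5, 0, 5.39 and 11.3 CPM in libraries 1 to 4, far below each of these. Nerve cells held 42.5% of its UMIs and tendon fibroblasts 32%, whereas tendon fibroblasts held 90.5% of the UMIs of Col5a1. Col27a1, a fibrillar gene of cartilage and other tissues, was highest in nerve cells 3 at 289 ± 76.9 CPM (n = 3), above tendon fibroblasts 1 at 75.5 ± 17.2 CPM (n = 4).

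The fibril-associated genes were spread over different populations. Col14a1 was at 391, 237 and 395 CPM in tendon fibroblasts 2 of libraries 1, 3 and 4 and at 294 CPM in tendon fibroblasts 3. Tendon fibroblasts 1 had 3 UMIs of it in all. Nerve cells 1 and 2 were between these, at 134 ± 45 CPM (n = 3) and 130.4 ± 51.4 CPM (n = 2), as were bursal fibroblasts at 88.6 ± 58.7 CPM (n = 3). Col12a1, close in domain structure to Col14a1, was at 177 ± 50.5 CPM in tendon fibroblasts 1 (n = 4) and 94.1 ± 21.9 CPM in tendon fibroblasts 2 (n = 3). Its level in nerve cells 3 was 0, 413 and 101 CPM in libraries 1, 2 and 4, a range that covers both. Col16a1 was at 153 ± 24.1 and 181 ± 60.7 CPM in tendon fibroblasts 1 and 2 and at 355 ± 314 CPM in nerve cells 3.

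Col22a1, whose protein is known from tissue junctions such as that of muscle and tendon, was highest in bursal fibroblasts. These cells held 96.8% of its 805 UMIs. They had 964, 1046 and 741 CPM in libraries 1, 3 and 4. The next highest population was tendon fibroblasts 2, at 7.68, 8.14 and 48.3 CPM in the same libraries. Bursal fibroblasts were also the deepest cells, with a median of 20284 UMIs per cell against 10662 in tendon fibroblasts 2. After thinning to 2400 UMIs, 83.8% of bursal fibroblasts and 1.35% of tendon fibroblasts 2 had a Col22a1 UMI.

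Type IV collagen of most basement membranes is built of chains from Col4a1 (chromosome 8, 11198423 to 11312826, minus strand) and Col4a2 (chromosome 8, 11312805 to 11449287, plus strand), which lie head to head. Col4a1 was highest in endothelial cells 1, at 1741, 2492, 2138 and 1576 CPM in libraries 1 to 4, followed by pericytes at 1253, 1123, 2232 and 2889 CPM. These ranges overlapped. Nerve cells 1 were at 1374 ± 193 CPM (n = 3), tendon fibroblasts 3 at 945 CPM, bursal fibroblasts at 683 ± 329 CPM (n = 3), tendon fibroblasts 2 at 383 ± 95 CPM (n = 3) and tendon fibroblasts 1 at 42 ± 9.15 CPM (n = 4). Immune cells had 2 UMIs of it in 92 cells. Red blood cells had 15 UMIs in 145 cells and reached 43.6 CPM in library 2, the size of the mean in tendon fibroblasts 1. Of all basement membrane collagen UMIs, endothelial cells held 46.1% ± 5.97, pericytes 23.1% ± 13.5 and tendon fibroblasts 15.4% ± 12.5 (SD, n = 4).

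The ratio of Col4a1 to Col4a2 UMIs also differed. It was 1.56 in endothelial cells 1 (1.35 to 1.79 over libraries), 1.48 in pericytes and 2.29 in nerve cells 1 (2.14, 2.29 and 2.62 in libraries 1 to 3). In tendon fibroblasts 1 it was 0.503 (73 and 145 UMIs, 95% interval for counting error 0.375 to 0.671). The other type IV chains were rarer. Col4a5, a chain of kidney and smooth muscle basement membranes, was highest in pericytes at 109 ± 42.6 CPM (n = 4), which held 52.1% of its 280 UMIs. Col4a4 was highest in tendon fibroblasts 3 at 128 CPM, and tendon fibroblasts held 81.3% of its 155 UMIs.

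The type VI chains had like patterns. Col6a1, Col6a2 and Col6a3 were at 1416 ± 111, 982 ± 122 and 1084 ± 238 CPM in tendon fibroblasts 1 (n = 4) and at 1507 ± 213, 1130.2 ± 147 and 845 ± 67.9 CPM in tendon fibroblasts 2 (n = 3). They were highest in tendon fibroblasts 3, at 2322, 1630.2 and 1742 CPM. Bursal fibroblasts had 375 ± 12.3, 323 ± 48.5 and 188 ± 74.9 CPM (n = 3), and pericytes 267 ± 189, 205 ± 144 and 312 ± 213 CPM (n = 4). Within pericytes, libraries 3 and 4 were above libraries 1 and 2 for all 3 genes. Nerve cells 1 had 0 UMIs of Col6a1. The ratio of Col6a3 to Col6a1 UMIs was 0.807 and 0.548 in tendon fibroblasts 1 and 2 and 1.31 in pericytes.

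Of the type VIII genes, Col8a2 was at 81.2, 141, 143 and 193 CPM in tendon fibroblasts 1 of libraries 1 to 4 and at 8.97, 76.7 and 16.1 CPM in tendon fibroblasts 2 of libraries 1, 3 and 4. Tendon fibroblasts held 95.9% of its UMIs. Col8a1 was spread more widely, with 176 CPM in tendon fibroblasts 3, 91.1 ± 36.1 CPM in bursal fibroblasts (n = 3) and 74.9 ± 39.1 CPM in tendon fibroblasts 1 (n = 4).

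The multiplexins were found in different cells. Col15a1 was highest in tendon fibroblasts 3 at 1339.9 CPM, followed by endothelial cells 2 at 366, 738, 454 and 919 CPM and tendon fibroblasts 1 at 506, 602, 620.1 and 736 CPM in libraries 1 to 4. The ranges of these last populations overlapped. Bursal fibroblasts had 1 UMI of it in 40 cells, and endothelial cells 3 had 3 UMIs. Col18a1, from which the fragment endostatin is cut, was highest at 607 CPM in endothelial cells 3, the population with the highest lymphatic marker sum. Pericytes followed at 447, 554, 282 and 446 CPM in libraries 1 to 4. Tendon fibroblasts held 57% of the Col15a1 UMIs and 8.54% of the Col18a1 UMIs.

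Of the membrane-spanning genes, Col13a1 and Col23a1 had 100 or more UMIs. Col13a1 was highest in endothelial cells 1, at 82.1, 108, 106 and 258 CPM in libraries 1 to 4, and endothelial cells held 86.2% of its UMIs. Library 4 stood apart from the others. Col23a1 was highest in nerve cells 1, at 400.1, 346 and 376 CPM in libraries 1 to 3, and nerve cells held 81.2% of its UMIs. In nerve cells 3 its mean of 155 CPM came from library 4 alone. Col28a1, which is known from the Schwann cells of peripheral nerve, was at 383, 278 and 474 CPM in nerve cells 1 of libraries 1 to 3, and nerve cells held 74.2% of its UMIs.

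The 15 rarer genes had from 4 to 89 UMIs in all cells, too few to describe by population. They are Col2a1, Col11a2, Col24a1, Col9a1, Col9a2, Col9a3, Col20a1, Col4a3, Col4a6, Col6a5, Col6a6, Col7a1, Col17a1, Col25a1 and Col26a1. Col2a1, the main collagen of cartilage, had 16 UMIs.

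**Figure D4:**
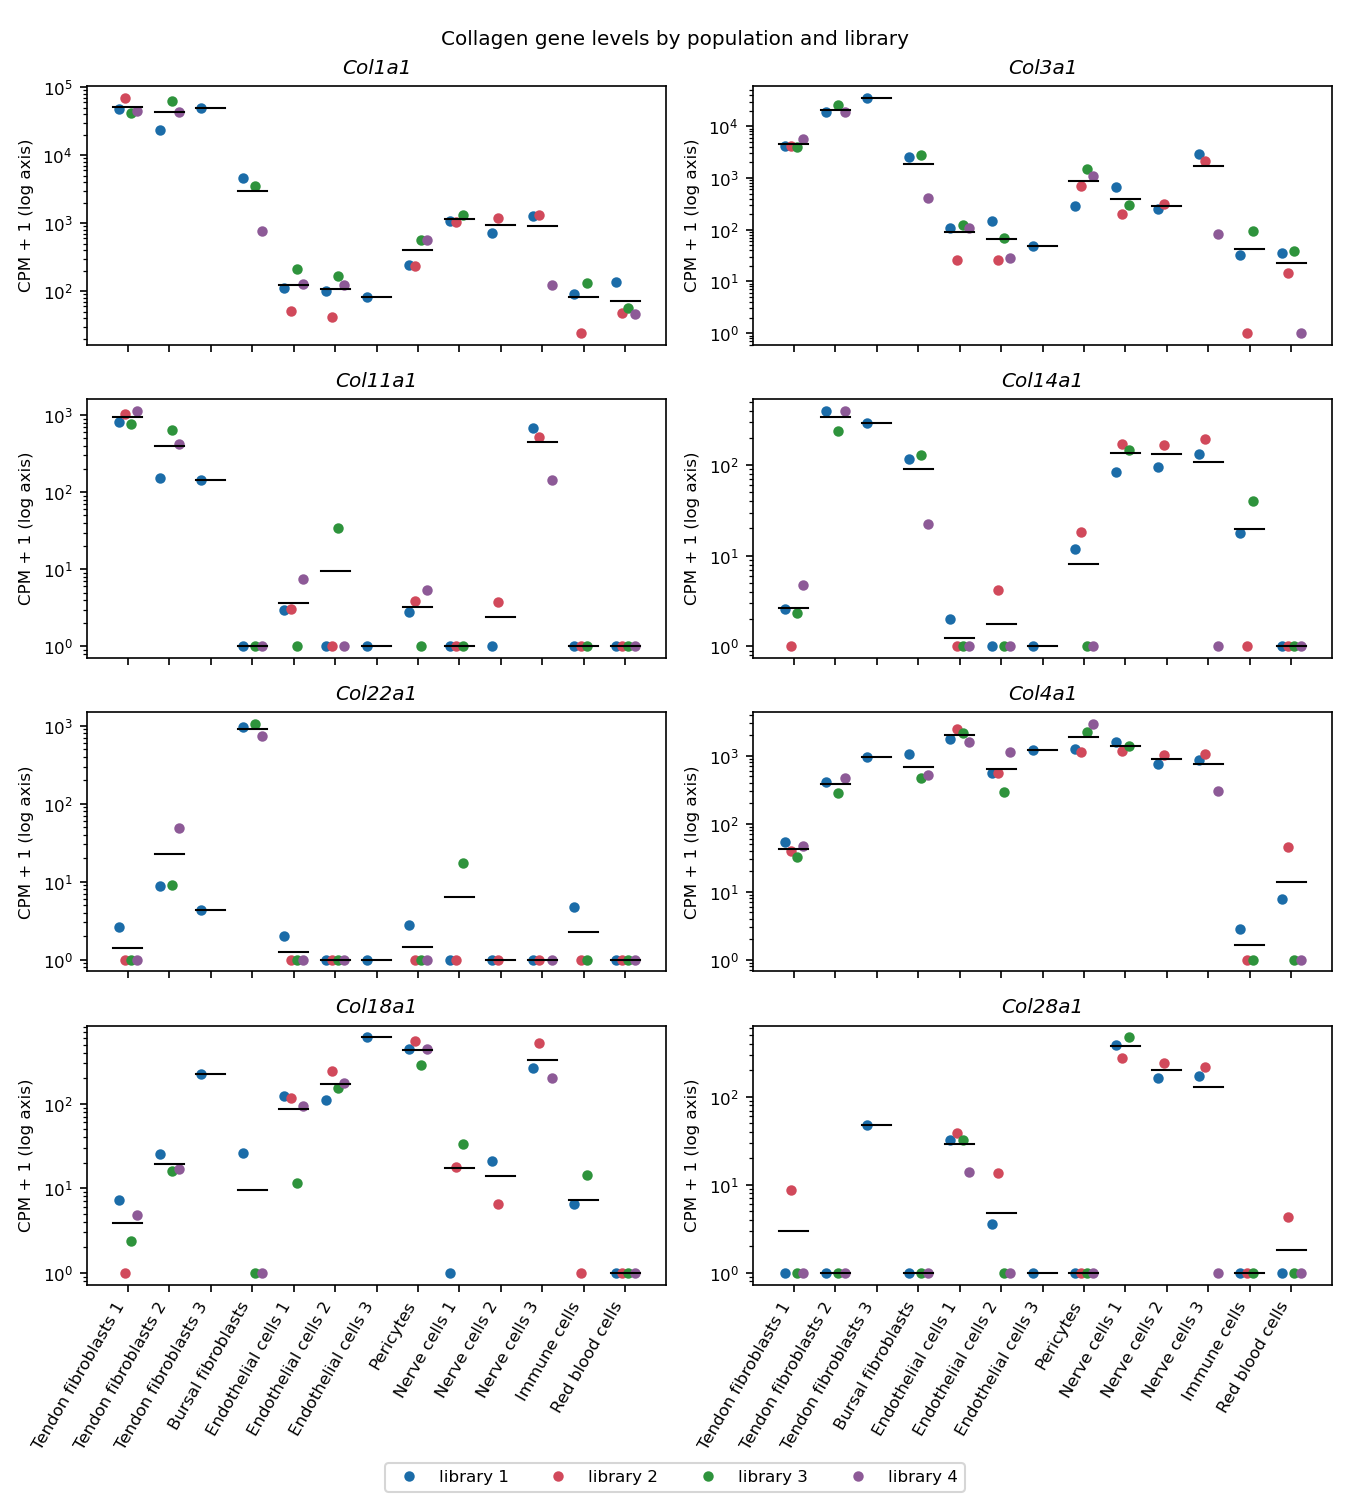
Levels of 8 collagen genes (vertical log axes, CPM plus 1) in the 13 annotated populations, with a point for each library with 5 or more cells and a black line for the mean over libraries. Col14a1 is between 0 and 3.78 CPM in tendon fibroblasts 1 and between 237 and 395 CPM in tendon fibroblasts 2, and Col22a1 is at 741 to 1046 CPM in bursal fibroblasts and at most 48.3 CPM elsewhere.

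Genes of similar pattern were sought among 4499 genes other than collagens that reached 100 CPM in at least 1 population, by Pearson's r of log2 mean CPM plus 1 over the 13 populations. The most alike were Igfbp6 (r = 0.94), Lum (0.91) and Dcn (0.90) for Col1a1, and Gnb4 (0.92), Lama4 (0.91) and Lamb1 (0.91) for Col4a1. For Col6a1 they were Twist1 (0.96), Creb3l1 (0.95) and Htra1 (0.94), and for Col15a1 Tmem47 (0.87), Peg3 (0.83) and Fst (0.80). Populations share libraries, so these are descriptions.

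Tendon fibroblasts 1 to 3 together were then compared with all other cells in 4 libraries. Sums of UMIs per library were tested with edgeR's quasi-likelihood test with the library as a block and Benjamini-Hochberg adjustment over all genes tested, at an adjusted p of 0.05. In bulk sums of this kind fewer cells with a transcript and less transcript per cell cannot be told apart. Of 41 collagen genes, 26 passed the filter on low counts, and 24 of these were called, 17 higher and 7 lower, against 29.3% called among all 9541 genes tested (13.5% higher and 15.9% lower). Their median log2 fold change was 2.67 beside -0.01 over all genes. The authors formed the populations from these same counts, so a call is no independent test of a population. When cells were clustered again without any collagen gene, 95.7% kept their population name and 23 collagen genes were called. Each new cluster took the commonest author name among its cells, so this too is no independent test of a population.

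All 3 tested type VI genes rose in tendon fibroblasts, as did 7 of 8 fibrillar genes and 3 of 4 fibril-associated genes. Col1a1 had 36729, 57634, 53246 and 41289 CPM in the tendon fibroblasts of libraries 1 to 4, a mean of 47225 ± 9832, against 605 ± 299 CPM (SD, n = 4) elsewhere (log2 fold change 6.67 ± 0.39 SE, adjusted p = 4.8e-06, higher in 4 of 4 libraries). Col11a1 was at 725 ± 247 against 8.53 ± 3.67 CPM (6.44 ± 0.34, adjusted p = 3.3e-06), and Col1a2 at 30383 ± 4832 against 565 ± 204 CPM (6.07 ± 0.29, adjusted p = 2.2e-06). Col8a2 was at 94.8 ± 40.9 against 2.17 ± 2.15 CPM (5.62 ± 0.39, adjusted p = 1.3e-05). All 4 were higher in 4 of 4 libraries. Col3a1 was at 11974 ± 4559.9 against 454 ± 194 CPM CPM (adjusted p = 1.4e-06). Col5a2 rose by 4.52 ± 0.23 on the log2 scale, and Col6a1, Col6a2 and Col6a3 by 4.42 ± 0.37, 4.22 ± 0.35 and 4.09 ± 0.37. Col5a1 (4.28), Col16a1 (3.67), Col12a1 (2.78), Col14a1 (2.57), Col27a1 (2.01), Col8a1 (1.64) and Col15a1 (1.55) rose as well, in 4 of 4 libraries.

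The 7 lower genes were Col4a1, Col4a2, Col13a1, Col18a1, Col22a1, Col23a1 and Col28a1. Col13a1 was at 2.72 ± 3.21 against 51.4 ± 39.3 CPM (-2.88 ± 0.52, adjusted p = 0.00258) and Col18a1 at 21.8 ± 20.4 against 149.5 ± 35.7 CPM (-2.38 ± 0.34, adjusted p = 8.0e-04). Col4a1 was at 295 ± 105 against 1173 ± 163 CPM (-1.80 ± 0.24, adjusted p = 5.2e-04) and Col4a2 at 269 ± 90.6 against 769.9 ± 122 CPM (-1.32 ± 0.22, adjusted p = 0.00199). Each was lower in 4 of 4 libraries. Col28a1 did not pass the filter without library 1, and Col22a1 did not without library 4 or with clusters formed without collagen genes.

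Enzymes, carriers and receptors that serve collagens were followed with a list of 38 partner genes. In tendon fibroblasts 27 of 33 tested partners rose and 1 fell (84.8% called against 29.3% of all genes, of which 13.5% higher), with a median log2 fold change of 2.18. Plod2, which hydroxylates lysines of the chains, was at 599 against 23.6 CPM (4.93 ± 0.31, adjusted p = 7.1e-06). Adamts2, which removes the amino propeptide of fibrillar procollagens, was at 554 against 24.7 CPM (4.75 ± 0.24, adjusted p = 2.6e-06), and the crosslinking enzyme Lox at 1189.8 against 105 CPM (4.19 ± 0.66, adjusted p = 0.00128). Itga11 and Itga10, integrin chains that bind collagens, rose by 5.10 ± 0.39 and 3.61 ± 0.33. The partner that fell was Itga1, another collagen-binding integrin chain, at 72.7 against 175 CPM (-1.04 ± 0.19, adjusted p = 0.00302).

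Tendon fibroblasts 1 and 2 were compared in libraries 1, 3 and 4. Of 21 collagen genes tested, 3 rose and 6 fell in tendon fibroblasts 1, against 7.97% called among all 7043 genes tested (4.19% higher and 3.78% lower). The called genes were Col3a1, minor fibrillar, fibril-associated, type IV and type VIII genes, while the type I and type VI genes were not called. All 3 tested type IV genes were lower in tendon fibroblasts 1, with a median log2 fold change of -2.94 beside 0.00 over all genes. The median over all 21 collagen genes was 0.08. With clusters formed without collagen genes, 10 collagen genes were called.

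Col14a1 fell the most. Tendon fibroblasts 1 had 3 UMIs of it and tendon fibroblasts 2 had 558 (-7.10 ± 0.37, adjusted p = 1.7e-05), a CPM ratio of 172 of the second over the first with a 95% counting interval of 58.7 to 838. Col4a1 was at 42.9 ± 10.9 against 383 ± 95 CPM (-2.94 ± 0.23, adjusted p = 1.2e-04) and Col4a2 at 91.1 ± 32.4 against 322 ± 86.9 CPM (-1.66 ± 0.22, adjusted p = 0.00175). Col5a3 was at 11.4 ± 6.06 against 77.5 ± 29 CPM (-2.73 ± 0.39, adjusted p = 0.00233) and Col3a1 at 4614 ± 926 against 20870 ± 3749 CPM (-1.98 ± 0.29, adjusted p = 0.00288). Col4a5 had 2 against 73 UMIs (adjusted p = 0.00337). Each of these was lower in 3 of 3 libraries and was called without each library in turn.

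The calls on genes that rose in tendon fibroblasts 1 depended on single libraries. Col8a2 was at 139 ± 55.8 against 33.9 ± 37.2 CPM (2.07 ± 0.46, adjusted p = 0.0249), Col11a1 at 906 ± 199 against 403 ± 244 CPM (1.55 ± 0.40, adjusted p = 0.0479) and Col12a1 at 194 ± 45.2 against 94.1 ± 21.9 CPM (1.22 ± 0.24, adjusted p = 0.0117), each higher in 3 of 3 libraries. Without library 1 none of the 3 was called, with edgeR adjusted p of 0.0867, 0.216 and 0.135. Without library 4 the calls on Col8a2 (0.0934) and Col11a1 (0.202) were lost, and so they were without the library block (0.0996 and 0.116). Col11a1 was also lost with clusters formed without collagen genes (0.0552), Col8a2 with thinned cells (0.0749) and Col12a1 with DESeq2 (0.0691). Col1a1 was at 44640.1 ± 2593 against 43261 ± 19993 CPM (0.36 ± 0.37, adjusted p = 0.695). Col1a2 (0.29 ± 0.34, adjusted p = 0.737), Col6a1 (0.16 ± 0.22, adjusted p = 0.786), Col6a2 (0.08 ± 0.22, adjusted p = 0.919) and Col6a3 (0.68 ± 0.20, adjusted p = 0.0758) did not pass the test either. The fitted values of Col1a1, Col1a2 and Col6a2 were below 0 without library 1.

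Markers of other tissues moved with this comparison. The 3 cartilage markers, of 5 listed, that are in the table were all highest in tendon fibroblasts 1, where they summed to 972 to 1133 CPM against 79 to 87.1 CPM in tendon fibroblasts 2. The 4 bone markers in the table, of 5 listed, of which 2 were highest in tendon fibroblasts 1, summed to 7409.9 to 10342 CPM against 16.1 to 34.9 CPM. Of these markers 0 were at 0 in either population, and their part in the differences was not tested.

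Among the 34 tested partners, 7 rose and 3 fell in tendon fibroblasts 1 (29.4% called against 7.97% of all genes), with a median of 0.03. Lox was at 2084 against 229.8 CPM (3.35 ± 0.26, adjusted p = 1.0e-04), P3h2, a prolyl 3-hydroxylase, at 85.9 against 3.91 CPM (4.18 ± 0.50, adjusted p = 9.8e-04) and Plod2 at 1028 against 171 CPM (2.76 ± 0.25, adjusted p = 2.2e-04). Loxl1, a relative of Lox, fell, at 11.3 against 237 CPM (-3.91 ± 0.42, adjusted p = 5.4e-04), as did the propeptide-cleaving enzyme Bmp1 (-1.68 ± 0.22) and its enhancer Pcolce (-1.57 ± 0.21). The related enhancer Pcolce2 rose (2.53 ± 0.57, adjusted p = 0.0246).

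The 100 bases before the start site of 3 of these genes are shown, since Col3a1 and Col5a3 fell and Col11a1 rose in tendon fibroblasts 1. They are from RefSeq (build GRCm38.p6), at chr1:45311438-45311537 (plus strand), chr9:20815068-20815167 (minus strand) and chr3:114030440-114030539 (plus strand), 5′ to 3′ on the strand of the gene. Capitals mark matches to CCAAT (reverse complement ATTGG) or GGGCGG (reverse complement CCGCCC).
Col3a1: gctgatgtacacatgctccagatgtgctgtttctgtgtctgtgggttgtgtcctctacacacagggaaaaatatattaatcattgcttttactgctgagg
Col5a3: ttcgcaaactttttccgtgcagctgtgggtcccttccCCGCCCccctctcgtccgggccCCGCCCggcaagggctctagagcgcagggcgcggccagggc
Col11a1: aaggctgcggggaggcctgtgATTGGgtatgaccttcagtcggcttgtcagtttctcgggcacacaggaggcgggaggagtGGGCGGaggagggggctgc
In the 250 bases before the start, GGGCGG was found on either strand in 60% of 35 windows of 32 collagen genes, against 32.7% of all 32851 windows of the same length. CCAAT was found in 34.3% against 33.8%, and TATAAA (reverse complement TTTATA) in 11.4% against 12.4%. A match describes the letters and says nothing of a bound factor.

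Tendon fibroblasts 1 and bursal fibroblasts were compared in libraries 1, 3 and 4, with 30, 5 and 5 bursal cells. The bursal cells were the deeper, with a median of 20284 UMIs against 8824 in tendon fibroblasts 1, and the part of depth was not tested. The 3 cartilage markers in the table summed to 972 to 1133 CPM in tendon fibroblasts 1 and 0 to 45.7 CPM in bursal fibroblasts. The 4 bone markers summed to 7409.9 to 10342 and 0 to 304 CPM, with Ibsp and Alpl at 0 in the latter. Of these 4, 2 were highest in tendon fibroblasts 1, 1 in bursal fibroblasts and 1 in endothelial cells 1. The 5 red blood cell genes summed to 52.6 to 305 CPM in tendon fibroblasts 1 and 29.9 to 9368 CPM in bursal fibroblasts. Their part in the differences was not tested. Of 19 collagen genes tested, 13 rose and 4 fell in tendon fibroblasts 1, against 15% called among all 5186 genes tested (8.99% higher and 5.98% lower). Their median log2 fold change was 2.13 beside 0.02 over all genes. With clusters formed without collagen genes 18 were called. Col11a1 had 1382 UMIs against 0 in bursal fibroblasts, at least 234-fold higher by CPM against a floor of 3 UMIs over the group (adjusted p = 6.9e-07). Col15a1 had 973 UMIs against 1 (CPM ratio 495, counting interval 88.7 to 19579, adjusted p = 6.5e-07) and Col8a2 208 against 1 (ratio 106, interval 18.8 to 4201, adjusted p = 9.4e-06). These 3 genes were thus at or near 0 in bursal fibroblasts. Col12a1 was at 194 ± 45.2 against 7.95 ± 1.75 CPM (4.85 ± 0.46, adjusted p = 4.9e-06) and Col1a1 at 44640.1 ± 2593 against 3006 ± 2020.0 CPM (4.37 ± 0.52, adjusted p = 3.5e-05).

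Col22a1 went the other way, with 1 UMI in tendon fibroblasts 1 and 779 in bursal fibroblasts (-9.90 ± 0.57, adjusted p = 1.0e-07), lower in 3 of 3 libraries. Col4a1 (-3.80 ± 0.35, adjusted p = 4.3e-06), Col5a3 (-3.73 ± 0.41, adjusted p = 1.9e-05) and Col4a2 (-2.45 ± 0.39, adjusted p = 4.6e-04) were also lower in tendon fibroblasts 1. Col1a2 (3.89), Col6a3 (2.83), Col5a2 (2.40), Col5a1 (2.26), Col6a1 (2.13), Col27a1 (1.95), Col6a2 (1.87) and Col16a1 (1.67) rose. The edgeR call on Col27a1 was lost without library 1 (adjusted p = 0.0583) and without the library block (0.0605). Col3a1 was at 4614 ± 926 against 1898 ± 1301 CPM (1.73 ± 0.55, adjusted p = 0.0501), and it passed the threshold without library 3 (0.0115), with clusters formed without collagen genes (0.0196), with no filter on low counts (3.5e-06) and with DESeq2 (0.0473). Of 33 partners tested 13 rose and 3 fell (48.5% called against 15% of all genes), with a median of 0.62. Lox (6.29 ± 0.47) and Plod2 (3.77 ± 0.35) rose, and Loxl1 (-3.62 ± 0.50), Pcolce (-1.15 ± 0.29) and the collagen uptake receptor Mrc2 (adjusted p = 0.0363) fell.

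Tendon fibroblasts 2 were compared with the same bursal sums, so the values of both comparisons stand side by side with no test of overlap. Of 20 collagen genes tested, 14 rose and 1 fell in tendon fibroblasts 2, against 6.9% called among all 4960 genes tested (4.46% higher and 2.44% lower), with a median log2 fold change of 2.08 beside 0.00. With clusters formed without collagen genes 14 were called. Col11a1 had 719 UMIs against 0 (at least 113-fold higher by CPM against a floor of 3 UMIs over the group, adjusted p = 1.4e-04) and Col15a1 880 against 1 (CPM ratio 415, counting interval 74.3 to 16405, adjusted p = 8.8e-05). Col1a1 was at 43261 ± 19993 against 3006 ± 2020.0 CPM (4.12 ± 0.79, adjusted p = 0.00844), Col1a2 rose by 3.69 ± 0.68, adjusted p = 0.00673, and Col3a1 was at 20870 ± 3749 against 1898 ± 1301 CPM (3.81 ± 0.64, adjusted p = 0.00366). Unlike in tendon fibroblasts 1, Col14a1 was tested here, at 341 ± 89.8 against 88.6 ± 58.7 CPM (1.95 ± 0.47, adjusted p = 0.0315). Col12a1 was at 94.1 ± 21.9 against 7.95 ± 1.75 CPM (3.51 ± 0.47, adjusted p = 0.00107), and Col5a1 (3.20), Col5a2 (2.67), Col6a3 (2.17), Col6a1 (1.99), Col6a2 (1.80) and Col16a1 (1.57) rose as well.

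Col22a1 was at 21.4 ± 23.3 against 917 ± 158 CPM (-6.10 ± 0.63, adjusted p = 2.0e-04), the only collagen gene called lower in tendon fibroblasts 2. Col4a1 was at 383 ± 95 against 683 ± 329 CPM (-0.79 ± 0.38, adjusted p = 0.324) and Col4a2 at 322 ± 86.9 against 564 ± 260.2 CPM (-0.77 ± 0.37, adjusted p = 0.336). Without library 4, 5 collagen genes were called in place of 15. Col1a1 (edgeR adjusted p = 0.175), Col1a2 (0.175), Col3a1 (0.0893), Col5a1 (0.0502), Col6a1 (0.0854), Col6a2 (0.108), Col6a3 (0.113), Col14a1 (0.146), Col16a1 (0.152) and Col4a5 were those lost. Without library 1 the calls on Col14a1 and Col16a1 were lost, Col12a1 and Col4a5 did not pass the filter, and without library 3 the call on Col16a1 was lost. It was lost with DESeq2 (0.105) and with clusters formed without collagen genes (0.0604) too. Without the library block the call on Col14a1 was lost (0.0645). Of 27 partners tested 3 rose and 1 fell (14.8% called against 6.9% of all genes), with a median of 0.44, and Lox (2.90 ± 0.45) and Adamts2 (2.85 ± 0.41) were among those that rose.

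**Figure D5:**
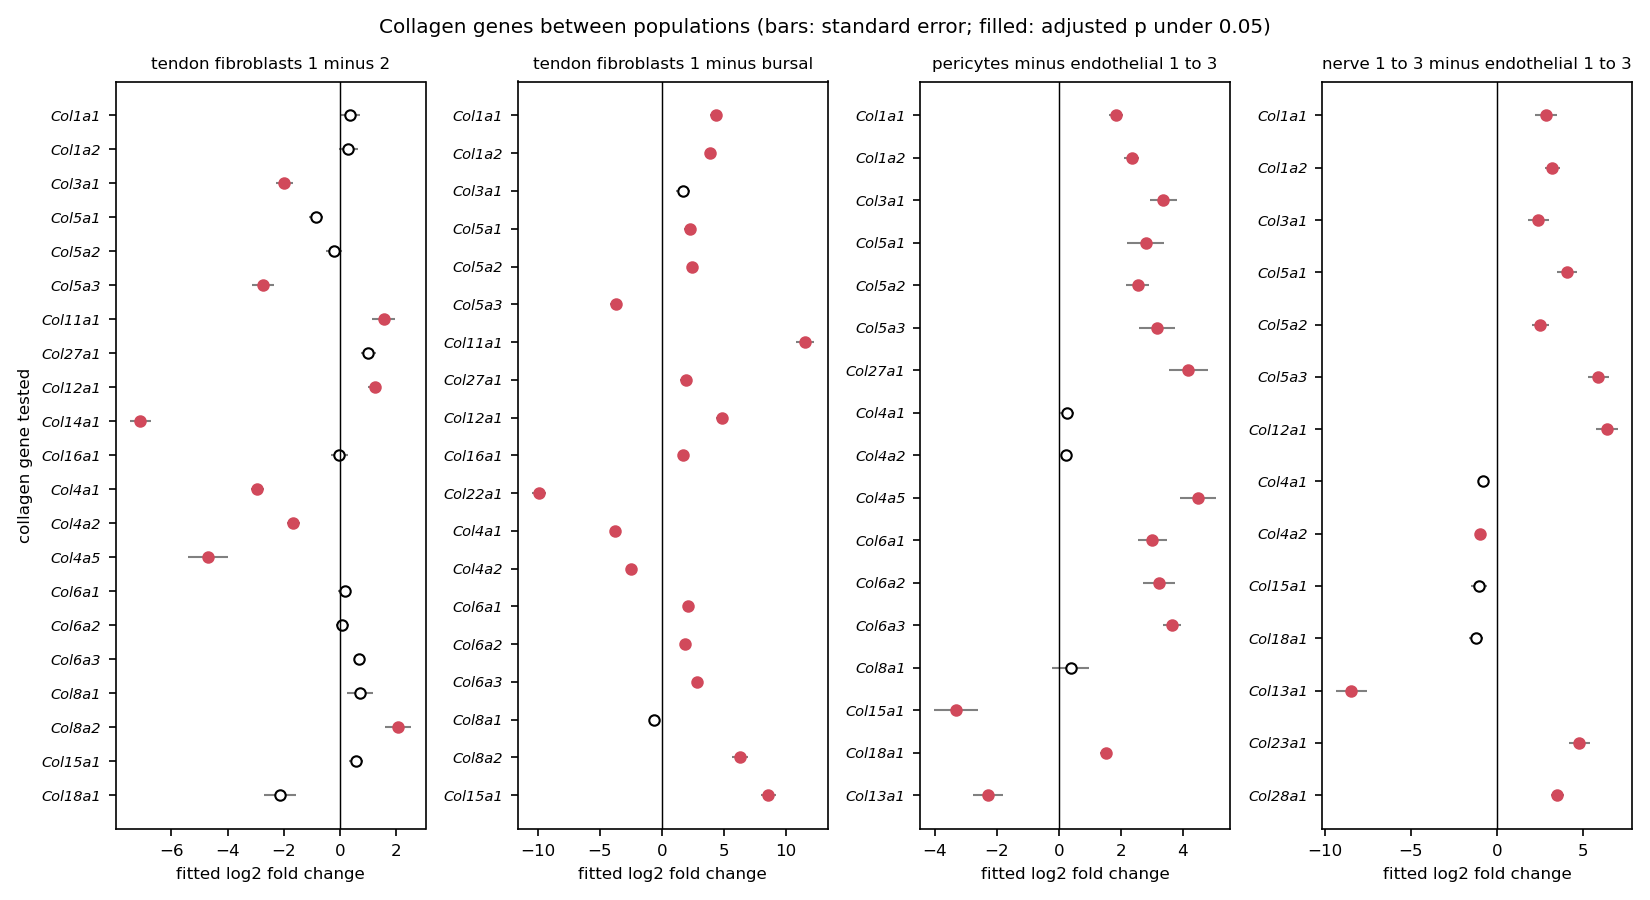
Fitted log2 fold change of each collagen gene tested (points, with standard errors as bars) in 4 comparisons of populations, with the genes in the order of their structural classes. Filled points passed an adjusted p of 0.05. Col14a1 is at -7.10 in tendon fibroblasts 1 against 2, and the fibrillar genes lie to the right of 0 in pericytes and nerve cells against endothelial cells.

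Endothelial cells 1 and 2, compared in 4 libraries, differed in basement membrane genes. Of 8 collagen genes tested, 3 rose and 0 fell in endothelial cells 1, against 18.2% called among all 5126 genes tested (7.74% higher and 10.5% lower). Col4a1 was at 1987 ± 411 against 630.0 ± 359 CPM (1.65 ± 0.25, adjusted p = 1.3e-04), Col4a2 at 1319 ± 213 against 487 ± 265 CPM (1.44 ± 0.22, adjusted p = 1.6e-04) and Col13a1 at 138 ± 80.5 against 44.1 ± 12.8 CPM (1.18 ± 0.29, adjusted p = 0.00747), each higher in 4 of 4 libraries. Markers of pericytes and smooth muscle were higher in endothelial cells 2, with 575 to 1528 CPM for the 8 genes in endothelial cells 1 and 1589 to 3039 CPM in endothelial cells 2, with 0 of them at 0, and their part was not tested. The same number was called with clusters formed without collagen genes. The ranges of Col4a1 did not overlap, since the highest value of endothelial cells 2 was 1135 CPM and the lowest of endothelial cells 1 was 1576 CPM. Col15a1 was at 595 ± 213 against 619 ± 255 CPM (-0.12 ± 0.15, adjusted p = 0.694) and Col18a1 at 85.5 ± 51.4 against 170.4 ± 56.5 CPM (-0.82 ± 0.31, adjusted p = 0.0784). Col1a1 (0.12 ± 0.23, adjusted p = 0.8), Col1a2 (0.08 ± 0.26, adjusted p = 0.898) and Col3a1 (-0.01 ± 0.29, adjusted p = 0.997) did not pass the test. Of 14 partners tested 2 rose and 2 fell (28.6% called against 18.2% of all genes), with a median of 0.15 beside 0.02 over all genes, and Itga1 rose by 1.86 ± 0.22, adjusted p = 8.2e-06.

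Pericytes, the cells that wrap small vessels, were compared with endothelial cells 1 to 3 together in 4 libraries. The endothelial sums, used below for nerve cells too, include endothelial cells 3, where lymphatic markers were high. These were 26, 4, 3 and 3 cells in libraries 1 to 4. Of 17 collagen genes tested, 12 rose and 2 fell in pericytes, against 34.2% called among all 5819 genes tested (15.7% higher and 18.5% lower). Their median log2 fold change was 2.55 beside -0.04 over all genes, and 12 were called with clusters formed without collagen genes. All 7 tested fibrillar genes and all 3 tested type VI genes rose, while Col4a1 and Col4a2 were not called. Col4a5 was at 109 ± 42.6 against 3.92 ± 5.67 CPM (4.49 ± 0.57, adjusted p = 1.7e-04), Col6a3 at 312 ± 213 against 22.1 ± 13 CPM (3.66 ± 0.29, adjusted p = 1.1e-05) and Col3a1 at 889 ± 512 against 82.6 ± 35.7 CPM (3.37 ± 0.43, adjusted p = 2.0e-04). Col6a2 rose by 3.23 ± 0.51, Col5a3 by 3.17 ± 0.57 and Col6a1 by 3.02 ± 0.47. Col5a1 (2.81), Col5a2 (2.55), Col1a2 (2.36), Col1a1 (1.85) and Col18a1 (1.53) rose in 4 of 4 libraries.

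Col15a1 fell in pericytes, at 98 ± 116 against 568 ± 239 CPM (-3.30 ± 0.71, adjusted p = 0.00471), and so did Col13a1, at 28.8 ± 45.9 against 109 ± 68.2 CPM (-2.28 ± 0.50, adjusted p = 0.00504). The edgeR call on Col13a1 was lost without the library block (adjusted p = 0.0587) and with clusters formed without collagen genes (0.191). Col5a3 did not pass the filter without library 1. Col4a1 was at 1874 ± 838 against 1551 ± 148 CPM (0.27 ± 0.23, adjusted p = 0.405) and Col4a2 at 1186 ± 370.3 against 1047 ± 138 CPM (0.25 ± 0.17, adjusted p = 0.296). The 10 tendon fibroblast markers summed to 123 to 444 CPM in pericytes and 58.2 to 248 CPM in endothelial cells 1, and Scx and Lum were at 0 in pericytes. The 6 endothelial markers summed to 475 to 2218 CPM in pericytes. What part these had in the values was not tested. Of 19 partners tested 5 rose and 1 fell (31.6% called against 34.2% of all genes), with a median of 0.28, and Adamts2 (4.82 ± 0.43, adjusted p = 2.1e-05) and the collagen receptor Ddr2 (3.86 ± 0.44, adjusted p = 9.4e-05) were among those that rose.

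Nerve cells 1 to 3 together were compared with endothelial cells 1 to 3 together in 4 libraries. In library 4 the nerve cells were 5 nerve cells 3 and 1 of nerve cells 1. They stood apart, with 74 UMIs of the tendon gene Fmod, against 0, 1 and 2 in the nerve cells of libraries 1, 2 and 3. Their Col1a1 was at 134 CPM, against 917, 1137 and 1113 CPM. Of 14 collagen genes tested, 9 rose and 2 fell in nerve cells, against 33.3% called among all 5578 genes tested (14.5% higher and 18.9% lower). The median log2 fold change was 2.70 beside -0.09 over all genes. With clusters formed without collagen genes 11 were called, 10 of them among the above and Col18a1 in addition. Without library 4, 17 of 17 tested were called, 12 higher and 5 lower, against 42.5% of all genes tested.

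Col12a1 had 131 UMIs in nerve cells against 3 in endothelial cells (CPM ratio 142, counting interval 47.6 to 699, adjusted p = 1.1e-04). Col5a3 was at 549.7 ± 219 against 9.34 ± 8.72 CPM (5.89 ± 0.61, adjusted p = 1.4e-04), Col23a1 at 283 ± 125 against 8.49 ± 7.43 CPM (4.79 ± 0.60, adjusted p = 3.7e-04) and Col28a1 at 222 ± 142 against 19.7 ± 7.01 CPM (3.52 ± 0.35, adjusted p = 1.2e-04). Col5a1 was at 154 ± 16.1 against 10 ± 10.9 CPM (4.07 ± 0.59, adjusted p = 8.4e-04). Each was higher in 4 of 4 libraries, Col1a2 (3.23 ± 0.45, adjusted p = 7.1e-04) and Col1a1 (2.88 ± 0.65, adjusted p = 0.00816) included. In library 4 Col1a1 was at 134 CPM (7 UMIs) in nerve cells and 129 CPM (51 UMIs) in endothelial cells, almost equal. Nerve cells 3 of library 4 had 0 UMIs of Col28a1, so its value there came from 1 cell of nerve cells 1. Col13a1 had 0 UMIs in nerve cells against 275 in endothelial cells, at least 28.1-fold lower by CPM against a floor of 3 UMIs over the group (adjusted p = 9.7e-04).

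Col4a2 fell in nerve cells, at 486 ± 78.8 against 1047 ± 138 CPM (-0.96 ± 0.23, adjusted p = 0.0101), and Col4a1 was at 872 ± 384 against 1551 ± 148 CPM (-0.79 ± 0.33, adjusted p = 0.105). Col3a1 was called (2.42 ± 0.59, adjusted p = 0.0123) and was higher in 3 of 4 libraries, as was Col5a2 (2.53 ± 0.47, adjusted p = 0.00313). Col5a2 did not pass the filter with thinned cells or with clusters formed without collagen genes. Without library 1 the edgeR calls on Col1a1 (adjusted p = 0.0571), Col3a1 (0.0933) and Col4a2 (0.0651) were lost, without library 2 that on Col3a1 (0.0884) and without library 3 that on Col4a2 (0.0523). Without library 4 Col4a1 passed the threshold (0.0432). The 8 genes of a list that responds to tissue dissociation summed to 664 CPM in nerve cells 1, 12766 CPM in nerve cells 2 and 18234 CPM in nerve cells 3, with 0 of them at 0, and their part in the collagen values was not tested. Of 16 partners tested 3 rose and 2 fell (31.2% called against 33.3% of all genes), with a median of -0.20, and the collagen receptor Ddr1 was at 61.7 against 8.1 CPM (3.02 ± 0.34, adjusted p = 2.3e-04).

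Several collagen genes lie beside each other in the genome (GRCm38). Col4a1 and Col4a2, which overlap at their starts, had r = 0.981 for log2 mean CPM plus 1 over the 13 populations. Col3a1 and Col5a2 lie tail to tail on chromosome 1 with 24614 bases between them (r = 0.94), and Col6a2 and Col6a1 point the same way on chromosome 10 with 85161 bases between them (r = 0.94). Col4a4 and Col4a3 lie head to head with 71 bases between them. Some pairs on different chromosomes had r as high, such as Col1a1 and Col1a2 (0.996), Col6a2 and Col6a3 (0.975) and Col3a1 and Col5a1 (0.942). Others were low, down to -0.452 for Col6a1 and Col23a1. The part of genome position in these values was not tested. Within single libraries, Col4a1 and Col4a2 varied together over the cells of endothelial cells 1, with Pearson's r of 0.688, 0.744, 0.591 and 0.667 in libraries 1 to 4 (94, 46, 28 and 22 cells). Cells and populations share libraries and depth, so these values carry no test.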

How the data were processed

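Single cells of mouse Achilles tendon were sequenced in 4 libraries. The authors deposited a table of UMI counts per gene and cell, a table of natural log normalized values and the population name of each cell. Cell Ranger, Seurat 2.3.4, R 3.5.2 and the build mm10 are named per the submitters' processing notes, with their settings not given in the sources used here. The deposited natural log values equal ln(1 + 10000 × count / total), with a maximum difference of 5.0e-10, and served only as a check. Of 15750 rows, 4 with repeated names were left out (0.0186% of UMIs), and 0 columns of values had no sample. No cell was filtered and no doublet caller was run.

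Counts were summed per library and population, for sums of 5 or more cells, and tested with edgeR 4.0.16 (limma 3.58.1, R 4.3.3) with filterByExpr, TMM scaling and the library as a block. The standard errors of fold changes were derived from the test, as the absolute log2 fold change over the square root of its F statistic. They were not estimated by the fit itself. The library pairs the sums because both sides come from the same cell suspension, and the correlation of their deviations across genes ran from -0.0328 to 0.169 over the 7 comparisons. The fit was first tested on simulated data. Named genes were called, moved in 1 direction in every library and reached 50 CPM on the higher side, while Col1a1, Col1a2, Col3a1, Col4a1, Col4a2 and Col6a1 to Col6a3 were always given. Col4a5, Col28a1, Col22a1 in the comparison of all tendon fibroblasts, and Col3a1 and Col5a2 in nerve cells, were named outside this rule after their values were seen. The members and lists were chosen with earlier results of these data known.

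Alternatives were RLE scaling, scaling without collagens, no filter, DESeq2 1.42.0, no block, 10 cells per sum, cells thinned to 2400 UMIs (114 shallower cells left out), leaving out each library, and clusters formed without collagen genes (scanpy 1.11.5, 2000 variable genes, 30 components, 10 neighbours, Leiden resolution 2, 28 clusters, each given its commonest name). Intervals and floors cover counting error only, with a floor of 3 UMIs and 95% exact intervals. Positions come from GENCODE M21 and sequences from RefSeq, with 32 of 41 members matched.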

Additional observations from a re-analysis of the deposited data

Results flagged for a closer look

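Col13a1 in endothelial cells 1 stood at 258 CPM in library 4, against 82.1, 108 and 106 CPM in libraries 1, 2 and 3. The gap from library 4 to the nearest library was 0.852 of the whole range, and a test for single outlying values (Dixon's, at 95%) marked it. Of 14 groups of 4 libraries examined, this was the only value that stood apart, and chance gives such a value in about 1 of 20 groups.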

How the results depend on the processing

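Of 99 results on named genes, recomputed under 1040 alternatives in all, 985 kept direction and side of the threshold, 34 kept direction but lost the call, 7 gained it and 14 changed sign, all of these among results that were not called. Of 85 called results, 68 kept their call under every alternative in which the gene passed the filter and 0 changed sign. In tendon fibroblasts 1 against 2, leaving out a library gave log2 fold changes of -0.12 to 0.80 for Col1a1, -0.11 to 0.70 for Col1a2 and -0.070 to 0.29 for Col6a2, each below 0 without library 1. There thinned cells gave -0.077 for Col1a2 and -0.055 for Col6a2, and clusters formed without collagen genes -0.086 for Col6a2. In endothelial cells 1 against 2, leaving out a library gave -0.056 to 0.25 for Col1a2, below 0 without library 2 or 3, and -0.25 to 0.74 for Col3a1, above 0 without library 1 or 2. There Col3a1 was at 0.0083 with RLE scaling, 0.066 with no filter, 0.29 with DESeq2 and 0.073 without the library block. With no filter on low counts 15 collagen genes were called in tendon fibroblasts 1 against 2, 6 in endothelial cells 1 against 2 and 24 in nerve cells against endothelial cells, where more genes were tested and the median of all genes tested moved from 0.02 to 0.13 between endothelial populations and from -0.09 to -0.36 in nerve cells. Against bursal fibroblasts it moved from 0.02 to 0.16 in tendon fibroblasts 1 and from 0.0046 to 0.17 in tendon fibroblasts 2. With thinned cells 5 of 7 tested were called in pericytes against endothelial cells, where fewer genes passed the filter, and with 10 cells per sum 17 in nerve cells. Leaving out each library in turn gave 6 to 9 called genes in tendon fibroblasts 1 against 2, 16 to 18 in tendon fibroblasts 1 and 5 to 16 in tendon fibroblasts 2 against bursal fibroblasts, 23 to 26 in tendon fibroblasts against all other cells, 3 to 4 between endothelial populations, 13 to 14 in pericytes and 8 to 17 in nerve cells. The cause was not tested. Leaving out a library gave 81.6% to 91.5% of collagen UMIs in tendon fibroblasts. The collagen share of tendon fibroblasts 3 was 14.0% with thinned cells and 13.7% as a mean over cells, and that of endothelial cells 3 was 0.248% and 0.241%.

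Without the library block the counts of called collagen genes were 8, 16, 14, 24, 3, 13 and 12, in the order tendon fibroblasts 1 against 2, 1 and 2 against bursal fibroblasts, all tendon fibroblasts, endothelial cells, pericytes and nerve cells, and beside the losses named above Col18a1 gained a call in the first and last. The share of higher calls in tendon fibroblasts 1 against 2 was then 12.5% in place of 33.3%. Sums of 10 cells could not be had for the 3 fibroblast comparisons, and thinned sums for those with bursal fibroblasts, because fewer than 3 libraries held enough cells. The bursal cells, 40 in all, and populations found in 1 library limit the precision.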
